A study of Gallus gallus with 6 samples.

Results

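The nuclear genes of oxidative phosphorylation (OXPHOS) were examined in cultured chicken primordial germ cells, the embryonic precursors of eggs and sperm, before and after their conversion to adherent somatic cells. Members were the rows of the gene table whose symbol named a subunit of respiratory complex I (NDUFA, NDUFB, NDUFC, NDUFS and NDUFV), II (SDHA to SDHD), III (UQCR), IV (COX4 to COX8) or V (ATP5), or cytochrome c (CYCS). The rule found 65 of 23873 genes: 31 of complex I, 4 of complex II, 8 of complex III, 9 of complex IV, 12 of complex V and CYCS. No row carried the symbol CYC1, which the rule also named. Subunits encoded in the mitochondrial genome are not analysed here. NDUFV1 was annotated as a pseudogene and the other members as protein coding.

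The study compared 3 libraries of undifferentiated primordial germ cells (PGCs), which grow in suspension, with 3 libraries of somatic differentiated PGCs. The latter were adherent cells, enriched by aspirating the suspended ones and letting the rest proliferate for some further weeks. All cells derived from embryonic blood and shared a medium with chicken serum, B-27, nucleosides, non-essential amino acids, monothioglycerol, pyruvate, heparin, human FGF2, the ROCK inhibitor H1152 and the myosin inhibitor blebbistatin. Each library came from RNA of a PGC line, but the labels do not say whether lines came from different embryos, nor which lines gave both groups, so p-values measure only the spread between these libraries. The question set by the study was which pathways become active as PGCs turn somatic.

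Oxidative phosphorylation makes ATP in the inner mitochondrial membrane. Complexes I and II pass electrons from NADH and succinate to ubiquinone, complex III passes them to cytochrome c, and complex IV, cytochrome c oxidase, passes them to oxygen. Complexes I, III and IV pump protons as they do so, and ATP synthase, complex V, uses the returning protons to make ATP. Most subunits are encoded in the nucleus, are present in fixed proportions in each complex and serve every aerobic cell; the roles given below are those known from the mammalian enzymes. Mitochondria of germ cells are also of interest because they are the ones that eggs pass on.

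The authors name the deposited values TPM, but in every library all values above 0 were whole multiples of 1 step, to within 0.05 of a step and for genes of any length. They are therefore treated as reads scaled to a library total of 1000000 (CPM), not divided by transcript length, and levels of different genes are not set against each other. The steps correspond to 57164320, 65705049 and 57455385 reads in undifferentiated libraries 1 to 3 and to 60685538, 59620427 and 60957528 reads in somatic differentiated libraries 1 to 3. Members had 550 to 106643 reads in a library. The groups matched their labels by markers: 11 of 12 germ cell markers were lower in somatic differentiated cells, with summed levels of 7539 to 7608 CPM against 1814 to 2546 CPM. Of 13 mesenchymal or matrix markers, 12 were higher, with sums of 2287 to 2873 CPM and 23028 to 30797 CPM. Germ cell RNA was therefore still measured in the somatic differentiated libraries, and in bulk RNA a smaller number of such cells cannot be told apart from less RNA per cell. Summed leukocyte markers reached at most 16.6 CPM, gonadal somatic markers 5.98 CPM and muscle markers 16.3 CPM. Erythroid markers summed to at most 20.1 CPM, and HBA1 had 0 reads in every library, which allows up to 0.052 CPM by a limit of 3 reads (counting error only). Endothelial markers summed to 10.4 to 18.9 CPM and 24.9 to 98.4 CPM, of which CDH5 gave 91.0 CPM in somatic differentiated library 2. The part of any of these cells in the results below was not tested.

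Oxidative phosphorylation genes differed little between the groups. Every gene was tested with limma on log2(CPM + 1), and a gene passed when its p, adjusted by Benjamini-Hochberg over all 12996 genes averaging 1 CPM or more, was under 0.05. All 65 members were tested; the lowest, ATP5S, had a mean of 12.7 CPM, so none entered through 1 group alone. Of the 65, 9 passed (13.8%), against 39.9% of all genes tested. Where only genes as abundant as ATP5S or more were taken, 44.1% passed. Members called lower in somatic differentiated cells numbered 4 (6.15%), against 22% of all genes, and those called higher 5 (7.69%), against 17.9%. At an unadjusted p under 0.05 the shares were 21.5% and 50.5%. Among the members only SDHA passed with a log2 change reaching 1; 13.2% of all genes did so upward, while 7.77% did so downward, against 0 members.

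The changes were small as well as seldom called. The median of the 65 log2 changes was -0.12, beside -0.11 for all genes tested, and 43 members lay below 0. The median size of a change, regardless of sign, was 0.20 in the members and 0.56 in all genes. Changes of 59 members (90.8%) were smaller than 0.5 in size, a range that held 45.6% of all genes. For 60 members the 95% interval of the change lay wholly between -1 and 1; the other 5 were SDHA, NDUFV3, CYCS, COX6A1 and UQCRQ. Values of the 2 groups did not overlap in 25 members (38.5%), against 55.6% of all genes.

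**Figure D1:**
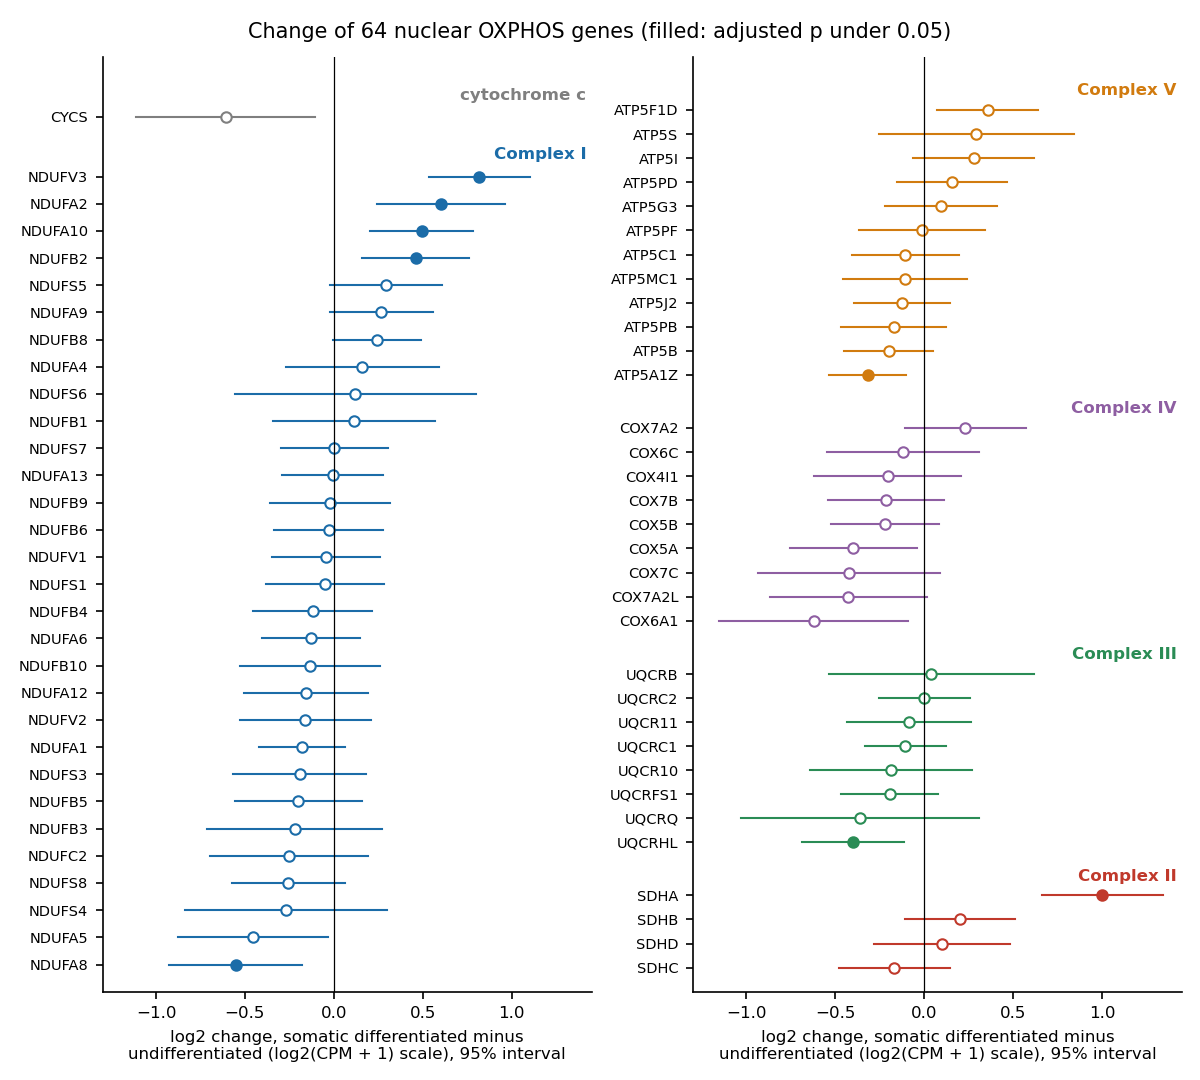
Log2 change of 64 members (x axis, somatic differentiated minus undifferentiated, log2(CPM + 1) scale) with its 95% interval from limma, grouped by complex; filled points have an adjusted p under 0.05. Of the 65 members 1, called lower, is not drawn. The 8 filled points are 5 above 0, led by SDHA at 1.00, and 3 below 0, the lowest being NDUFA8 at -0.55.

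The summed reads of the members overlapped between the groups. The 65 genes held 1.47%, 1.98% and 1.52% of all reads in undifferentiated libraries 1 to 3. They held 1.58%, 1.47% and 1.53% in somatic differentiated libraries 1 to 3. Library 2 was thus the highest of all 6, and the remaining libraries covered 1.47% to 1.58%.

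The widest 95% Wilson interval of these shares, and of those by complex, was ± 0.0034 percentage points, for counting error only. Complex I members summed to 0.524%, 0.704% and 0.533% of reads in undifferentiated libraries and to 0.589%, 0.555% and 0.564% in somatic differentiated ones. For complex II the sums were 0.0401%, 0.0475% and 0.0393%, then 0.0490%, 0.0461% and 0.0494%. In complexes I and II the somatic differentiated libraries lay above undifferentiated libraries 1 and 3; undifferentiated library 2 was the highest of all 6 for complex I but below somatic differentiated libraries 1 and 3 for complex II. Complex IV members held 0.338%, 0.510% and 0.357% in undifferentiated and 0.344%, 0.321% and 0.301% in somatic differentiated libraries. Of the latter, libraries 2 and 3 lay below every undifferentiated library, and library 1 lay between undifferentiated libraries 1 and 3. Complex III ran from 0.220% to 0.302% and from 0.202% to 0.242%. Complex V ran from 0.334% to 0.397% and from 0.332% to 0.366%, so the groups overlapped in both.

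**Figure D2:**
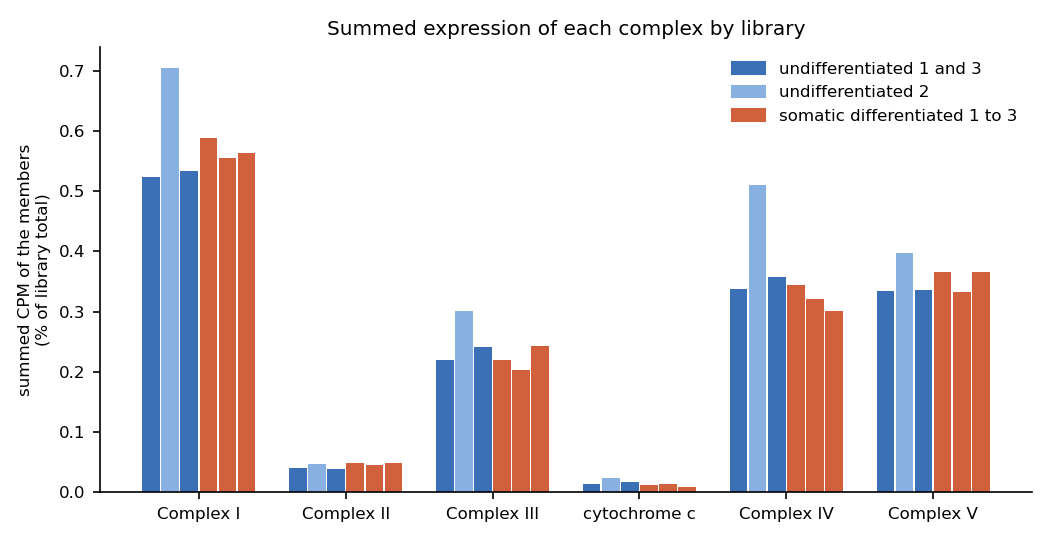
Summed reads of the members of each complex and of CYCS, as a percentage of the library total, in each of the 6 libraries (bars, undifferentiated 1 to 3 then somatic differentiated 1 to 3 from left to right). Undifferentiated library 2 has the highest bar for complexes I, III, IV and V and for CYCS, for example 0.510% in complex IV.

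Undifferentiated library 2 stood apart from libraries 1 and 3. It held the highest of the 3 undifferentiated values in 57 of 65 members; the other 8 were NDUFA1, NDUFS1, NDUFB8, SDHA, UQCRC1, UQCRC2, ATP5J2 and ATP5F1D. The median member lay 0.32 above the mean of libraries 1 and 3 on the log2 scale. Across all genes tested this difference fell with the length a gene spans in the genome, from a median of -0.01 in the shortest of 5 equal groups of genes to -0.64 in the longest. Most members are short genes, with a median span of 3545 bases, and 41 of 65 belong to the shortest group; the median of all 65 lay above that of the shortest group. Cytosolic ribosomal protein genes summed to 166118 CPM in library 2 against 124013 and 121758 CPM in libraries 1 and 3. Results without this library, and with each library corrected for span, are given next.

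**Figure D3:**
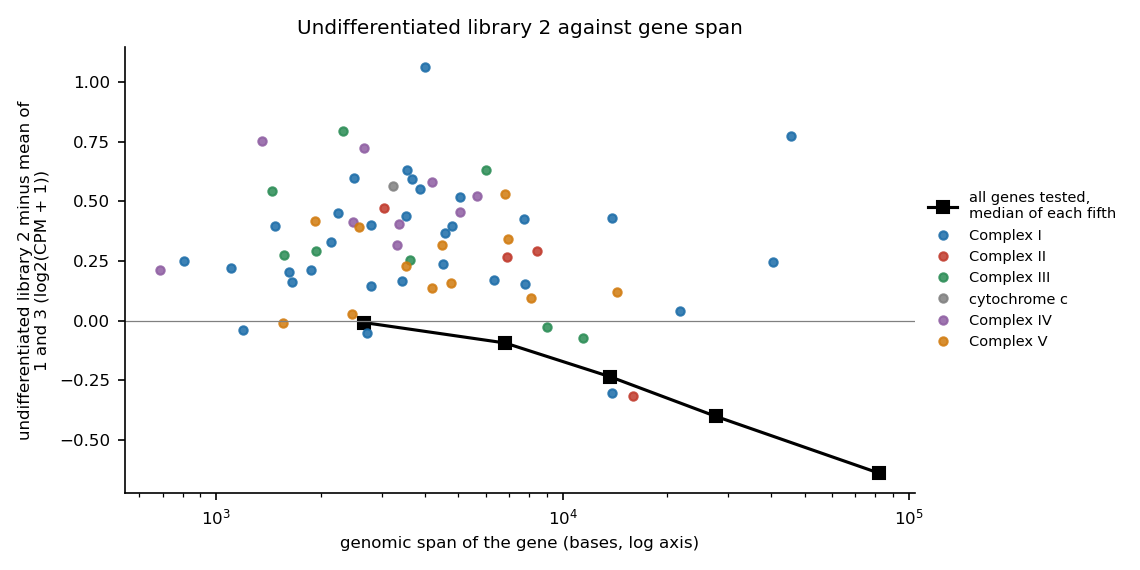
Difference between undifferentiated library 2 and the mean of libraries 1 and 3 (y axis, log2(CPM + 1)) against genomic span (x axis, log scale) for each member, coloured by complex; squares are medians of all genes tested in 5 equal groups by span. The squares fall from -0.01 to -0.64, while the members have a median of 0.32.

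Without undifferentiated library 2, 13 members passed, 9 higher and 4 lower. Of the 12996 genes tested, 2271 were then called higher and 4151 lower. The 9 members called with all libraries were among the 13, joined by NDUFS6 (0.48), SDHB (0.30), COX7A2 (0.34) and ATP5I (0.42), all higher. The median member then changed by -0.01, and the median of all genes by -0.19. The spread between undifferentiated libraries, as the median SD over members, was 0.20 with library 2 and 0.061 between libraries 1 and 3. The span correction acts on every library, so it also removes differences between the groups that genes of similar span share. Before it, the median change was -0.17 in the shortest group of genes and 0.07 in the longest. With each library corrected for gene span, 6 members were called higher and 0 lower, beside 2951 and 2750 of all genes. Of the 6, 4 were among the 9 called without the correction, and NDUFB8 (0.39) and ATP5F1D (0.51) were added. The median of ratios scaling moved the median of all genes from -0.11 to 0.0035 and gave 4 members called higher and 0 lower. Of all genes, 2882 were called higher and 2282 lower with that scaling. EdgeR's quasi-likelihood test on the recovered reads, added after the data were seen, called the same 9 members and 5317 genes in all when scaled by library totals. Scaled by TMM it called 5473 genes and, of the members, SDHA and NDUFV3, both higher, with a median of all genes of -0.04. Relative to the median of all genes, the median member lay at -0.012, and between -0.14 and 0.19 over all alternative fits run. Of all genes called, 45.0% were higher in somatic differentiated cells, 55.8% with median of ratios, 52.7% by edgeR with TMM and 35.4% without library 2.

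Complex I, NADH dehydrogenase, has a matrix arm that takes electrons from NADH and a membrane arm that pumps protons. Of its 31 members 4 rose and 2 fell, and their median change was -0.05. The core subunits of the matrix arm are those that carry the flavin and the iron-sulfur clusters. NDUFV1, which binds NADH, measured 202, 214 and 185 CPM in undifferentiated and 191, 172 and 221 CPM in somatic differentiated libraries (log2 change -0.04, 95% interval -0.35 to 0.26). The groups overlapped, and they did so for most of the core. NDUFV2 changed by -0.16, NDUFS1 by -0.05, NDUFS3 by -0.19 and NDUFS7 by 0.0035, with adjusted p from 0.366 to 0.985. NDUFS8 changed by -0.26 (adjusted p 0.169); its groups did not overlap, with 125 to 141 CPM and 94.95 to 123 CPM.

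The largest increases in complex I were in accessory subunits. NDUFV3, a small subunit of the NADH-binding module (ENSGALG00000022813, chromosome 1, 110902176 to 110909972), measured 45.9, 49.4 and 42.7 CPM in undifferentiated libraries. The somatic differentiated libraries read 79.1, 83.8 and 82.5 CPM, with a wide gap between the groups (log2 change 0.82, SE 0.12, limma adjusted p 0.00313). The ratio of NDUFV3 to its partner NDUFV1 was 0.227, 0.231 and 0.231 in undifferentiated and 0.414, 0.486 and 0.373 in somatic differentiated libraries. Library 2 did not stand apart in that ratio. NDUFV3 passed in all 19 alternative fits, with changes from 0.77 to 0.96.

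NDUFA2, a further accessory subunit of that module (ENSGALG00000040626, chromosome 13, 1603439 to 1604914), rose from 109 ± 18.4 to 166 ± 15.2 CPM (SD, n = 3). Its libraries read 96.6, 131 and 101 CPM, then 176, 148 and 172 CPM, without overlap (log2 change 0.60, SE 0.15, limma adjusted p 0.0193). NDUFA10, a subunit of the membrane arm near the matrix arm (ENSGALG00000004302, chromosome 7, 6553073 to 6593641), rose from 125 ± 12.7 to 176 ± 12.9 CPM (SD, n = 3; 0.49, SE 0.12, limma adjusted p 0.0185). NDUFB2, in the far part of the membrane arm (ENSGALG00000032595, chromosome 1, 56918175 to 56918981), rose from 101 ± 10.9 to 139 ± 9.95 CPM (SD, n = 3; 0.46, SE 0.13, limma adjusted p 0.0263). NDUFA10 and NDUFB2 also had no overlap. NDUFA10 and NDUFB2 were named after their values were seen. NDUFA10 did not pass after the span correction (0.48, limma adjusted p 0.135), and NDUFB2 not with median of ratios (0.58, limma adjusted p 0.0536).

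NDUFA8, a cysteine-rich accessory subunit of the membrane arm (ENSGALG00000040987, chromosome 17, 9003054 to 9005858), had the lowest change in complex I. It measured 45.7, 62.6 and 48.6 CPM in undifferentiated and 33.6, 36.1 and 35.3 CPM in somatic differentiated libraries. The groups did not overlap (log2 change -0.55, SE 0.16, limma adjusted p 0.0305). It was at -0.42 without undifferentiated library 2 (limma adjusted p 0.0229), at -0.40 after the span correction (0.0955) and at -0.44 with median of ratios (0.164).

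The other 19 members of complex I, all accessory, did not pass and had changes from -0.46 (NDUFA5) to 0.29 (NDUFS5). NDUFS6, a zinc-binding subunit that joins late in assembly, showed the widest spread. It measured 285, 608 and 296 CPM in undifferentiated and 402, 444 and 370 CPM in somatic differentiated libraries. NDUFS4, on chromosome Z, was also high in undifferentiated library 2, at 600 CPM against 318 and 386 CPM. For NDUFS4 the 3 somatic differentiated values, 293 to 389 CPM, overlapped those of libraries 1 and 3. NDUFA4, which mammalian studies now place in complex IV, changed by 0.16 (adjusted p 0.508).

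Complex II, succinate dehydrogenase, works in both the respiratory chain and the tricarboxylic acid (TCA) cycle and is wholly nuclear encoded. SDHA, the flavoprotein that oxidises succinate (ENSGALG00000013167, chromosome 2, 85662894 to 85678854), had the largest change of the 65 members. It measured 60.6, 46.4 and 55.2 CPM in undifferentiated and 115, 99.4 and 112 CPM in somatic differentiated libraries. The lowest somatic differentiated value was well above the highest undifferentiated one (log2 change 1.00, SE 0.14, limma adjusted p 0.00286). SDHA passed in all 19 alternative fits, with changes from 0.90 to 1.12. CCDC127, on the other strand, overlapped it by 89 bases and averaged 22.9% of its reads.

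The partners of SDHA changed less. SDHB, the iron-sulfur subunit, measured 98.2, 117 and 93.3 CPM, then 124, 110 and 120 CPM, with overlap (log2 change 0.20, 95% interval -0.11 to 0.51, limma adjusted p 0.26). SDHC and SDHD anchor the complex in the membrane. SDHC changed by -0.17 (95% interval -0.48 to 0.14) and SDHD by 0.098 (95% interval -0.29 to 0.48), and neither passed. The ratio of SDHA reads to SDHB reads was 0.618, 0.395 and 0.592 in undifferentiated libraries and 0.929, 0.904 and 0.933 in somatic differentiated ones. The ratio to SDHC rose from 0.349 ± 0.0782 to 0.781 ± 0.0829 (SD, n = 3), also without overlap. These ratios carry the lengths of both transcripts, so only their differences between libraries are of use; they were chosen after the values were seen and are given without a test.

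**Figure D4:**
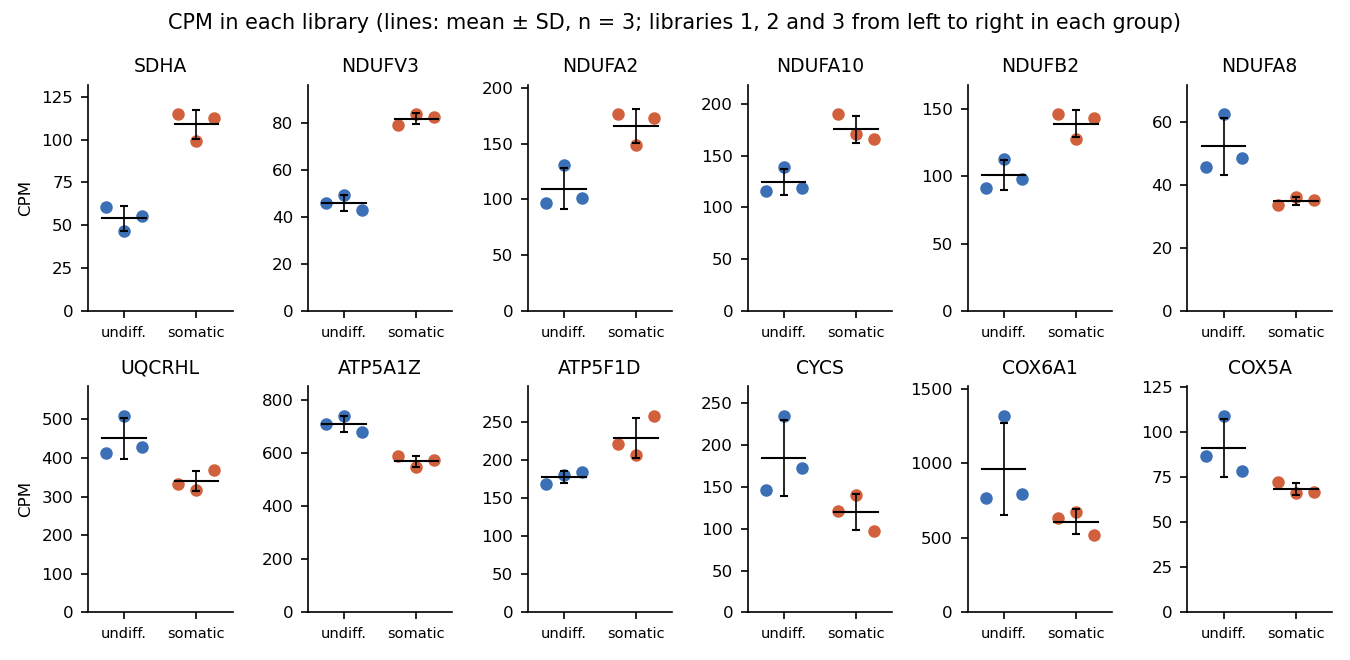
CPM of 12 members in each library (points, libraries 1 to 3 from left to right in each group) with mean and SD (n = 3); the axes start at 0. SDHA and NDUFV3 show the clearest gap, with 46.4 to 60.6 against 99.4 to 115 CPM for SDHA. CYCS, COX6A1, COX5A and ATP5F1D did not pass. CYCS, COX6A1 and COX5A have their highest value in undifferentiated library 2, as do NDUFA8, UQCRHL and ATP5A1Z, which passed.

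Complex III, the cytochrome bc1 complex, had 8 members and a median change of -0.15. UQCRFS1, the Rieske iron-sulfur protein, measured 165, 201 and 171 CPM in undifferentiated and 161, 155 and 151 CPM in somatic differentiated libraries (log2 change -0.20, limma adjusted p 0.218). The values did not overlap, but the gap was narrow. The core proteins UQCRC1 and UQCRC2 changed by -0.11 and 0.00017, and their 95% intervals, -0.33 to 0.12 and -0.25 to 0.26, were the narrowest of the complex.

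UQCRHL, for which RefSeq gives UQCRH as a synonym, corresponds to the hinge protein beside cytochrome c1 (ENSGALG00000017380, chromosome 8, 21951261 to 21952830). It was the member of complex III that fell, from 414, 510 and 428 CPM to 333, 318 and 369 CPM, with no overlap (log2 change -0.40, SE 0.12, limma adjusted p 0.0364). It did not pass after the span correction (-0.25) or with median of ratios (-0.28). UQCRQ (-0.36) and UQCRB (0.039) had the widest intervals of the complex. UQCRQ measured 48.9, 68.2 and 30.8 CPM in undifferentiated libraries, so its spread within that group exceeded the difference.

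Cytochrome c carries electrons from complex III to complex IV and also triggers caspases when released from mitochondria. CYCS (chromosome 2, 31761476 to 31764714) measured 146, 235 and 173 CPM in undifferentiated and 122, 140 and 97.3 CPM in somatic differentiated libraries. All somatic differentiated values were below all undifferentiated ones, yet the change did not pass (log2 change -0.61, 95% interval -1.11 to -0.11, limma adjusted p 0.057). Without undifferentiated library 2 it was -0.42 (limma adjusted p 0.0974). CYCS passed in 3 of the 19 alternative fits, among them the one with the replicate number as a block (limma adjusted p 0.0413).

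In complex IV, cytochrome c oxidase, the catalytic subunits are encoded in the mitochondrial genome and the nuclear ones surround them. In the main limma fit, with all libraries, none of its 9 members passed, and 2 had an unadjusted p under 0.05. None passed by edgeR with either scaling. With the replicate number as a block in the limma fit, COX6A1 passed (limma adjusted p 0.0358). In 8 of 9 the change was below 0, and the median was -0.22, beside -0.11 for all genes tested. Undifferentiated library 2 held the highest undifferentiated value in all 9. Without it the median of the 9 was -0.15 and that of all genes -0.19. COX4I1, which takes part in the control of the enzyme by ATP, measured 381, 565 and 374 CPM, then 372, 352 and 401 CPM, with overlap (log2 change -0.21, limma adjusted p 0.38). COX5A changed by -0.40 (86.5, 109 and 78.4 CPM against 72.1, 66.4 and 66.9 CPM; limma adjusted p 0.0751). COX5B changed by -0.22. Without undifferentiated library 2 these changes were -0.01, -0.26 and -0.15.

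COX6A1, the widespread isoform of subunit VIa in mammals, had the lowest change of all 65 members, at -0.62 (95% interval -1.15 to -0.09). It measured 771, 1322 and 796 CPM in undifferentiated and 636, 675 and 519 CPM in somatic differentiated libraries, without overlap, and did not pass (limma adjusted p 0.0642). Without undifferentiated library 2 the change was -0.37. COX7A2 and COX7A2L are paralogs: the former is a subunit of the enzyme, and the latter helps to join complexes III and IV in mammals. COX7A2 measured 61.6, 72.9 and 55.2 CPM, then 77.4, 69.2 and 75.4 CPM (log2 change 0.23). COX7A2L measured 53.1, 75.7 and 56.7 CPM, then 50.0, 48.4 and 38.1 CPM (-0.43). Neither passed with all libraries; COX7A2 did so without undifferentiated library 2 (0.34, limma adjusted p 0.0477). Of the remaining members, COX6C was at -0.12, COX7B at -0.21 and COX7C at -0.42.

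Complex V, ATP synthase, has a catalytic head of alpha and beta subunits, a rotating stalk and a membrane ring. ATP5A1Z, the alpha subunit on chromosome Z (ENSGALG00000037880, 2151248 to 2159334), was the only one of the 12 members to pass. It fell from 709, 740 and 678 CPM to 588, 545 and 571 CPM, with no overlap (log2 change -0.32, SE 0.09, limma adjusted p 0.0304). RefSeq names a copy of this gene on chromosome W, and reads that fit both copies cannot be told apart in these values. The change was -0.18 after the span correction and -0.20 with median of ratios, where it did not pass.

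The beta subunit, ATP5B, changed by -0.20 (95% interval -0.45 to 0.05) and measured 589, 651 and 595 CPM, then 511, 500 and 587 CPM. ATP5B shares 865 bases on the same strand with PTGES3, which had a similar number of reads. The ratio of alpha to beta overlapped between the groups, at 1.16 ± 0.0372 and 1.07 ± 0.0901 (SD, n = 3). ATP5C1, the gamma subunit of the rotating stalk, changed by -0.11 and overlapped.

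ATP5F1D, the delta subunit of the same stalk, went the other way. It measured 169, 181 and 185 CPM in undifferentiated and 222, 208 and 259 CPM in somatic differentiated libraries, without overlap (log2 change 0.36, 95% interval 0.07 to 0.64). Its limma adjusted p was 0.0514, and 0.0198 after the span correction. The ratio of ATP5F1D to ATP5B was 0.292 ± 0.0174 and 0.430 ± 0.0134 (SD, n = 3); it was chosen after the values were seen. ATP5MC1 and ATP5G3, which in mammals encode the same mature subunit c of the membrane ring, changed by -0.11 and 0.094. ATP5S, or coupling factor B, was at 0.29, and ATP5I, or subunit e, at 0.28; neither passed. The other 4 members of complex V, ATP5PB, ATP5J2, ATP5PF and ATP5PD, had changes from -0.17 to 0.15.

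Among members close to each other, ATP5F1D (0.36) and NDUFS7 (0.0035) lie 129 kb apart on chromosome 28. On chromosome 5, NDUFS8 (-0.26) and NDUFV1 (-0.04), 107 kb apart, both failed the test. Annotated genes overlapped 16 members, and in 9 the other gene had at least 10% as many reads as the member, among them RPS2 for NDUFB10 and KCTD2 for ATP5PD. For those members shared reads are possible.

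Genes that build the respiratory chain were mostly called lower where they were called. Of 43 tested assembly factors 13 fell and 1 rose, a share of 32.6% against 39.9% of all genes, with a median of -0.17. TMEM70, an assembly factor of ATP synthase, fell from 142 ± 18.96 to 69.8 ± 9.28 CPM (SD, n = 3; log2 change -1.02, limma adjusted p 0.00346). HCCS, which attaches haem to cytochrome c, fell from 71.9 ± 5.32 to 37.7 ± 6.91 CPM (SD, n = 3; -0.93, limma adjusted p 0.00615). COX17, a copper chaperone for complex IV, rose from 129 ± 24.1 to 194 ± 15.4 CPM (SD, n = 3; 0.60, limma adjusted p 0.0212). Without undifferentiated library 2, 13 assembly factors were called lower and 1 higher; after the span correction the counts were 8 and 2.

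Mitochondrial ribosomal proteins translate the subunits encoded in the mitochondrion. Of 67 tested, 23 fell and 1 rose (35.8%), with a median of -0.33. Without undifferentiated library 2, 25 fell and 3 rose (median -0.25), and after the span correction 7 fell and 2 rose. MRPS6 fell by 1.40 and MRPL22 by 0.87 on the log2 scale, while MRPS16 rose by 1.05. Of 21 protein import genes 11 fell and 1 rose (57.1%, median -0.52). For these the counts were 12 and 2 without undifferentiated library 2, and 8 and 1 after the span correction. TOMM22, a receptor of the outer membrane, fell from 358 ± 21.95 to 187 ± 17.3 CPM (SD, n = 3; limma adjusted p 0.0017). CHCHD4, the oxidoreductase of the intermembrane space, fell from 62.7 ± 5.55 to 33.3 ± 2.82 CPM (SD, n = 3), and TIMM21 rose by 0.67. Cytosolic ribosomal proteins had 1 of 62 called lower (RPS20) and 0 higher; without undifferentiated library 2, 14 were called higher.

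**Figure D5:**
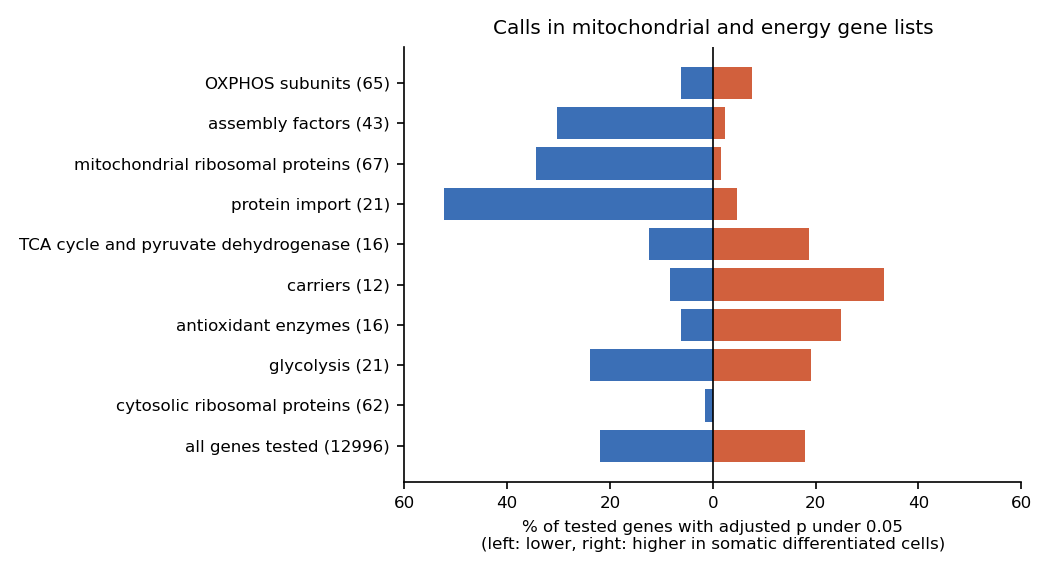
Share of tested genes with an adjusted p under 0.05 (x axis, percent; left, lower and right, higher in somatic differentiated cells) for the members, 8 further lists and all genes tested, with the number tested in brackets. The members are at 6.15% lower and 7.69% higher; protein import genes, mitochondrial ribosomal proteins and assembly factors extend mostly to the left.

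Fuel pathways gave calls in both directions. Of 16 TCA cycle and pyruvate dehydrogenase genes 2 fell and 3 rose (31.2%, median -0.0022). SUCLG2, the GTP-forming subunit of succinyl-CoA synthetase, fell by 1.17, and DLAT, of pyruvate dehydrogenase, fell by 0.78. DLD rose by 0.77 and IDH2 by 0.62. Of 21 glycolysis genes 5 fell and 4 rose (42.9%, median -0.08), with SLC16A3, a lactate transporter, at -1.08 and SLC16A1 at -0.81. PDK4, which inhibits pyruvate dehydrogenase, rose by 1.92, from 1.76 ± 0.603 to 10.9 ± 6.69 CPM (SD, n = 3). Without undifferentiated library 2 PDK4 did not pass and 1 glycolysis gene was called higher. Of the other PDK genes listed, PDK1 fell from 85.0 ± 19.3 to 48.6 ± 8.64 CPM (SD, n = 3; -0.78, limma adjusted p 0.0281). PDK2 and PDK3 did not pass with all libraries. Without undifferentiated library 2, PDK3 was called lower (-0.44, limma adjusted p 0.0244). PDK1, PDK2 and PDK3 were named after their values were seen. Of 12 carriers 1 fell, SLC25A13 at -0.93, and 4 rose (41.7%), led by VDAC1 at 1.23 and SLC25A1 at 1.04. Of 16 antioxidant enzymes GPX1 fell by 0.56 and 4 rose (31.2%), led by GLRX at 2.28 and TXNRD1 at 2.26; after the span correction 7 were called higher.

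Regulators of mitochondrial genes were called in both directions, more often lower: 6 of 18 fell and 3 rose (50.0%, median -0.46). MYCN fell from 447 ± 21.2 to 155 ± 39.7 CPM and POLG, the mitochondrial DNA polymerase, from 36.5 ± 8.78 to 16.6 ± 2.45 CPM (SD, n = 3; log2 changes -1.55 and -1.07). EPAS1 and MYC rose by 2.61 and 2.36. The co-activator PPARGC1A, known as a regulator of OXPHOS genes in mammals, measured 9.64, 3.73 and 7.88 CPM, then 2.98, 4.13 and 1.51 CPM (-1.04, limma adjusted p 0.0745). The nuclear respiratory factor NRF1 measured 21.9, 10.8 and 21.4 CPM, then 13.7, 15.6 and 13.6 CPM (-0.25, limma adjusted p 0.501). In both genes undifferentiated library 2 was the lowest of its group, and without it both passed, at -1.39 and -0.57 (limma adjusted p 0.0206 and 0.0198). After the span correction PPARGC1A passed (-1.17, limma adjusted p 0.00847) and NRF1 did not (-0.24, limma adjusted p 0.265). PPARGC1A and NRF1 were chosen after their values were seen. Without that library 9 regulators were called lower and 3 higher. Apart from the single genes named, the lists other than the members were described by counts and medians only, and no difference between lists was tested.

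The calls of single members depended on which libraries entered the fit. SDHA and NDUFV3 passed when any 1 of the 6 libraries was left out. NDUFA10, NDUFA2, NDUFB2, NDUFA8, UQCRHL and ATP5A1Z each lost the call in 3 to 5 of the 6 such fits, with the sign kept. Counts of members called higher were 2, 9 and 2 without undifferentiated libraries 1, 2 and 3, and 2, 5 and 3 without somatic differentiated libraries 1, 2 and 3. Counts called lower were 2, 4 and 0, and 0, 0 and 2. Over all genes tested, those called higher numbered 1993, 2271 and 1677, and 1751, 2038 and 2160, in the same order. Those called lower numbered 1840, 4151 and 1551, and 1822, 2310 and 2068. In the 19 alternative fits no called member changed sign.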

How the data were processed

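Poly(A) RNA of 6 libraries, 3 in each of 2 groups, was measured by RNA-seq. The authors deposited 1 value per gene and library, which they name TPM, with gene coordinates; each library totals 1000000. In all 6 libraries 100% of the values above 0 were whole multiples of 1 step (tolerance 0.05), so the deposited values are reads scaled to the library total (CPM) with no division by length, and whole reads were recovered; how they were counted cannot be told from the values. The submitters' processing notes name FastQC 0.11.9, Trimmomatic 0.39, Trim Galore 0.6.6, cutadapt 3.1, STAR 2.7.3a, RSEM 1.3.1 and the build GRCg6a, whose coordinates are assumed here; for the annotation release and the strand setting of the counting, no source used here gives a value. The table's length column equals the genomic span in every row.

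Every gene with a mean of at least 1 CPM was fitted on the log2(CPM + 1) scale (limma 3.58.1, R 4.3.3), with equal weights and a variance trend, two-sided. This scale understates changes of low genes. P-values were adjusted by Benjamini-Hochberg over 12996 genes. The recovered reads were also tested with edgeR 4.0.16 (quasi-likelihood, library totals or TMM), added after the data were seen; the tests planned for TPM values were kept as the main ones. Both fits were also run on simulated data in which few genes changed, each by more than any member did here. Those runs do not show how smaller changes are called. An exact permutation test of 3 against 3 libraries cannot go below p 0.1 and was not used.

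The members and lists were chosen with earlier results of these data known. Named were the core subunits, paralogous isoforms, the 2 lowest and 2 highest changes in complexes I, III, IV and V, members that passed with a change of at least 1, and up to 2 passed genes per direction in other lists, beside genes said to be chosen after their values were seen. List symbols were matched whole but regardless of case, or by a pattern where the list gave one. A symbol matching no row, or more than 1, was left out. Of 57 assembly factor symbols, for example, 44 were kept. The motif search planned for promoters was not run, since no sequences are used here. Alternatives covered the pseudocount (0.1, 5), the filter (none, 5 CPM), 2 scalings, the variance trend, library weights, a replicate block, span correction, omission of the 10 most abundant genes, each library left out, and a minimum change of 1. Some single genes that enter the counts are not reported here by name.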

Additional observations from a re-analysis of the deposited data

How the results depend on the processing

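With all libraries and the settings given, 4 members were called lower and 5 higher, the median member changed by -0.12, and 5185 genes were called in all. Pseudocounts of 0.1 and 5 and a filter at 5 CPM kept the counts of 4 and 5. Called lower were 0 members with median of ratios, quantile normalization, span correction, edgeR with TMM and a change of at least 1, 2 without the variance trend and without the 10 most abundant genes, and 8 with library weights. Called higher were 14 with library weights, 2 by edgeR with TMM and 1 with a change of at least 1. The median member changed by -0.0011 with median of ratios, -0.0067 with quantile normalization, -0.010 with library weights and 0.032 with span correction. All genes called numbered 7815 with library weights and 2731 with a change of at least 1. Leaving out 1 library gave 0 to 4 members lower, 2 to 9 higher, a median of -0.18 to -0.0098 and 3228 to 6422 genes called. The causes were not tested. Over the 65 members and 19 alternative fits, 1148 results kept their side of the threshold, 62 lost the call, 25 gained it and 0 reversed. Libraries held 57164320 to 65705049 reads, and the member with the fewest had 550 in a library.

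With the replicate number as a replicate block, 2 members were called lower, 2 higher and 4457 genes in all. Deviations of libraries with the same number correlated at 0.192, 0.0131 and 0.140. For undifferentiated libraries 1 and 3 these were the highest correlations with any somatic differentiated library. Undifferentiated library 2 correlated best with somatic differentiated library 1 (0.0210). Whether the numbers pair the libraries cannot be told from these values or from the labels, and the main fit did not pair them.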
